A study of Mus musculus with 8 samples.

Results

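The genes of the constitutive 26S proteasome were examined in liver RNA from male mice 8 h after acetaminophen, in 4 samples from 8-week mice (young) and 4 from 80-week mice (old). Members were the array's genes named Psma, Psmb, Psmc or Psmd with a number, without the immune subunits Psmb8, Psmb9 and Psmb10. Adrm1 and Sem1, regulatory particle genes with other names, fall outside this rule and outside the subunit counts below. The naming rule found 37 genes among the 36666 gene names on the array, and 36 of them were among the 17565 genes bright enough to test. They were 14 subunits of the core particle, 17 of the regulatory particle, 3 genes for assembly chaperones (Psmd5, Psmd9 and Psmd10), the testis subunit Psma8, the thymus subunit Psmb11 and Psmc3ip, a meiotic recombination factor caught by its name. Both groups had received the drug and no untreated liver was analysed here, so age itself and age in the response to the drug cannot be told apart. The labels give no dose, strain or animal identity. The spread among the 4 samples per age, on which the p-values rest, may therefore be technical. Whole liver RNA cannot tell fewer cells of a type from less RNA per cell.

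The proteasome degrades proteins tagged with ubiquitin chains. Its core particle is a barrel of alpha rings, which gate the entry, and beta rings, which hold the proteolytic sites. The regulatory particle caps the barrel: an ATPase ring unfolds the substrate, and the base and lid bind and remove ubiquitin. Cells that meet oxidised or damaged proteins, as hepatocytes do when the reactive metabolite of acetaminophen binds protein, rely on this machine, and the transcription factors NFE2L1 and NFE2L2 are known to drive its subunit genes under stress.

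All 8 arrays lay on 1 slide, the young samples in row 1 and the old samples in row 2, which means that slide row cannot be told apart from age. The 75th percentile of array intensity ran from 154.7 to 352.8 units, lowest on the old replicate 1 array and highest on the young replicate 2 array. All 6 hepatocyte markers tested were above background on all 8 arrays. On the first principal component over all tested genes, which held 49.1% of the variance, young replicates 1 and 2 lay at -61.3 and -99.2, and the other 6 arrays lay between 10.2 and 47.5. Results that rest on these replicates are given with and without them. A level is the log2 of the intensity divided by the 75th percentile of its own array, and a difference is old minus young.

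No proteasome gene passed the limma test at an adjusted p of 0.05, and differences in subunit transcripts were small. Of the 36 members tested, 0 passed, against 63 of all 17565 genes (0.359%). At an unadjusted p under 0.05, 1 member was lower in old livers (Psmc6), against 6.14% of all genes, and 0 were higher, against 7.91%. The 31 subunit differences ran from -0.48 to 0.09 on the log2 scale, whereas the 5th to 95th percentile range of all genes was -0.80 to 0.92. For all 31 subunits the 95% interval of the difference lay within 2-fold either way, as it did for 59.6% of all genes. The widest bounds of those intervals were -0.87 and 0.60. Without young replicates 1 and 2 the interval lay within 2-fold for 30 of the 31, and that of Psma5 ran from -1.05 to 0.07. The share of all genes was not counted for that fit. With all 8 arrays the SE of a subunit difference ran from 0.17 to 0.25, and smaller changes of subunit transcripts are not excluded by these intervals.

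**Figure D1:**
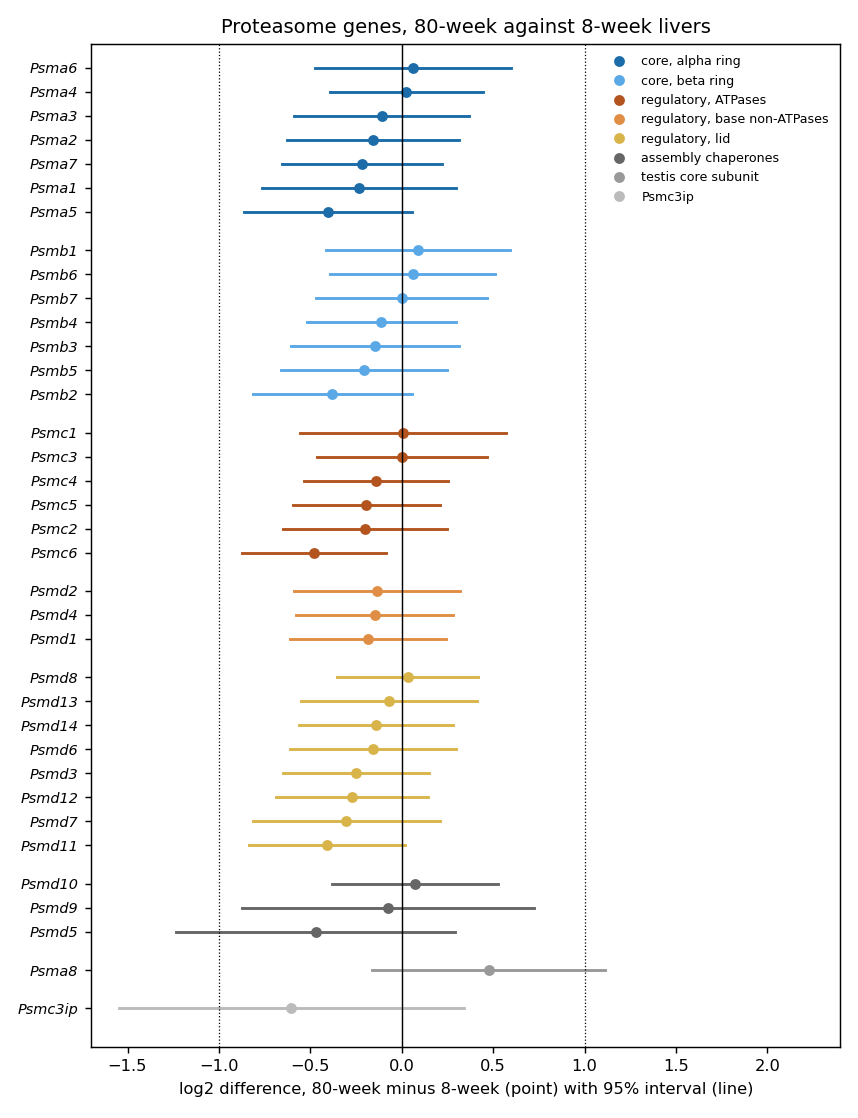
Log2 difference between 80-week and 8-week livers for each of the 36 proteasome genes tested (x axis), grouped by particle (points, estimates; lines, 95% limma intervals, n = 4 and 4; dotted lines, 2-fold either way). Only the interval of Psmc6 leaves out 0, and the intervals of all 31 core and regulatory subunits stay inside the dotted lines.

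Most subunits lay slightly lower in old livers. The difference was below 0 for 23 of 31 subunits and 26 of 36 members, against 48% of all genes. This sign count depends on the scaling: 28 of 31 were below 0 under quantile normalization, and 31 of 31 under median scaling, which itself moved the median of all genes from 0.02 to -0.09. Median scaling shifts all genes alike, so it leaves each distance from the all-gene median as it was, at -0.15 for the core median and -0.18 for the regulatory median. Under quantile normalization these distances were -0.16 and -0.22. In 3 of the 31 subunits every old value lay below every young value (Psma5, Psmc6 and Psmd11). They are 8.33% of the 36 members, against 3.76% of all genes. In 0 members did every old value lie above every young value, against 4.62% of all genes.

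In the alpha ring, whose subunits open and close the entry to the barrel, the median difference was -0.16 over 7 genes. Psma5 read 5.86, 5.83, 5.92 and 6.11 in young replicates 1 to 4 and 5.08, 5.49, 5.82 and 5.71 in old replicates 1 to 4. The highest old value lay just under the lowest young value, and old replicate 1 was the lowest by far. The difference was -0.40 (SE 0.21, limma adjusted p = 0.396), and -0.25 without that array. Psma7 had the next smallest p in the ring. It read 6.13, 6.04, 6.37 and 6.55 in young and 5.81, 5.97, 6.25 and 6.19 in old livers, and its difference was -0.22 (SE 0.20, limma adjusted p = 0.615). The groups overlapped for Psma7, and the other 5 alpha subunits had differences from -0.23 (Psma1) to 0.06 (Psma6).

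The 3 proteolytic subunits of the beta ring had overlapping groups and differences from -0.21 to 0.06. Psmb6, the caspase-like subunit, read 6.86, 6.52, 7.13 and 7.24 in young and 6.94, 6.97, 7.13 and 6.94 in old livers. The old values lay inside the young range, and the difference was 0.06 (95% interval -0.39 to 0.51). Psmb7, the trypsin-like subunit, read 4.13, 4.10, 4.62 and 4.73 in young and 4.19, 4.39, 4.55 and 4.45 in old livers. Its group means were both 4.39, and the difference was 0.00 (95% interval -0.47 to 0.47). Psmb5, the chymotrypsin-like subunit, read 4.84, 4.70, 5.11 and 5.06 in young and 4.36, 4.71, 5.03 and 4.79 in old livers. Its groups overlapped, with a difference of -0.21 (95% interval -0.66 to 0.25). Under median scaling, which lowers all genes alike, Psmb6 was at -0.04 and Psmb7 at -0.10. Under quantile normalization Psmb6 stayed above 0 and Psmb7 was at -0.07. Without young replicates 1 and 2 the differences were -0.19 for Psmb6, -0.28 for Psmb7 and -0.36 for Psmb5.

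Among the structural beta subunits the ends of the range were Psmb2 and Psmb1. Psmb2 read 1.64, 1.82, 2.02 and 2.05 in young and 1.33, 1.38, 1.45 and 1.85 in old livers. Only old replicate 4 reached into the young range, and the difference was -0.38 (SE 0.19, limma adjusted p = 0.398). A further pair of Psmb2 probes gave -0.24 and 0.28, so the direction of Psmb2 depends on the probe. The probe at 0.28 was designed on another transcript record than the other 2. Without young replicates 1 and 2 its difference was 0.08, and those of the other 2 were -0.53 and -0.40. Psmb1 read 4.87, 4.73, 5.32 and 5.45 in young and 4.90, 5.10, 5.39 and 5.33 in old livers. Its young values split into replicates 1 and 2 below and 3 and 4 above, and its difference of 0.09 (SE 0.22) was the highest of the core. It turned to -0.02 under median scaling.

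The ATPase ring held the largest subunit difference, in Psmc6. On the probe used for the test, Psmc6 read 5.91, 6.03, 5.86 and 6.02 in young and 5.18, 5.56, 5.50 and 5.66 in old livers. Every old value lay below every young value, and the spread within the young group was narrow (SD 0.09, against 0.21 in old). The young level was 1.40-fold that of the old, a log2 difference of -0.48 (SE 0.18, 95% interval -0.87 to -0.09), with an unadjusted limma p of 0.0217 and an adjusted p of 0.305. The second Psmc6 probe showed the opposite sign. It read 1.38, 2.01, 3.07 and 2.89 in young and 2.73, 2.73, 3.17 and 3.32 in old livers, a difference of 0.65. Its young replicates 1 and 2 were low and replicates 3 and 4 lay among the old values, so that without replicates 1 and 2 its difference was 0.01, while that of the first probe was -0.46.

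The probes of Psmc6 lie at different places in the gene. Per the array files, on build mm9, the 60-base probe used for the test lies on the plus strand between chr14:45966487-45968313, a span that exceeds its length because its alignment is interrupted. The second probe lies further along the same strand at chr14:45969130-45969189 and was designed on another transcript record. An mm9 gene annotation was not used here, so neither is assigned to an exon or UTR. Averaging the probes of each gene turned the Psmc6 difference to 0.09. Which probe reflects the Psmc6 transcript was not tested.

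Other ATPase genes were closer to 0. Psmc5 read 3.67, 3.64, 3.95 and 3.98 in young and 3.37, 3.72, 3.69 and 3.68 in old livers. Old replicates 2 to 4 lay between the young values and old replicate 1 lay below them all, for a difference of -0.19 (SE 0.18, limma adjusted p = 0.627). The ATPase median was -0.17 over 6 genes, and Psmc1, Psmc2, Psmc3 and Psmc4 ran from -0.20 to 0.01.

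The 3 base subunits without ATPase activity among the members were alike in their small differences. Adrm1, a base subunit outside the naming rule, differed by -0.44. Psmd1, a scaffold of the base, read 5.78, 6.07, 6.25 and 6.28 in young and 5.66, 5.94, 6.06 and 5.99 in old livers, a difference of -0.18 (SE 0.19). Psmd4, a receptor for ubiquitin chains, read 6.76, 6.67, 7.15 and 7.12 in young and 6.62, 6.95, 6.89 and 6.64 in old livers, a difference of -0.15 (SE 0.19). The groups overlapped for both, and their limma adjusted p values were 0.663 and 0.730. Psmd2, the other scaffold, had a difference of -0.13. The 3 probes of Psmd4 ran from -0.22 to 0.33 with all 8 arrays, so its sign there also depends on the probe. The probe at 0.33 was the dimmest of them. Without young replicates 1 and 2 the probes ran from -0.46 to -0.22.

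In the lid the median was -0.20 over 8 genes, and 7 of them were below 0. Psmd11, which ties the lid to the core particle, read 3.77, 3.65, 3.63 and 3.87 in young and 2.93, 3.56, 3.38 and 3.41 in old livers. The groups did not overlap, though old replicate 2 lay only just under the young values and old replicate 1 far below them. The difference was -0.41 (SE 0.19, limma adjusted p = 0.371), and -0.28 without old replicate 1. Psmd12, a structural lid subunit, read 5.98, 6.28, 6.31 and 6.52 in young and 5.84, 6.13, 5.91 and 6.12 in old livers, a difference of -0.27 (SE 0.19, limma adjusted p = 0.501). Young replicate 1 lay among the old values. Psmd8, also a structural subunit, had the highest difference of the 17 regulatory genes, 0.03 (95% interval -0.35 to 0.42). It read 4.73, 4.44, 4.88 and 4.82 in young and 4.66, 4.77, 4.80 and 4.77 in old livers, and its sign turned to -0.07 under median scaling. Psmd14, the lid enzyme that removes ubiquitin chains, and the remaining lid genes Psmd3, Psmd6, Psmd7 and Psmd13 ran from -0.30 to -0.07.

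Among the genes outside both particles, Psmd5, a chaperone of ATPase assembly, read 1.82, 2.03, 1.02 and 1.43 in young and 0.23, 1.10, 1.44 and 1.63 in old livers. The groups overlapped and old replicate 1 was low. The difference was -0.47 (SE 0.34, limma adjusted p = 0.524), and -0.18 without that array. It was -0.12 without young replicates 1 and 2, which held its highest young values. Psmd10 (gankyrin), an assembly chaperone, read 2.43, 2.82, 2.74 and 2.79 in young and 2.57, 2.49, 3.08 and 2.92 in old livers, a difference of 0.07 (SE 0.20) with overlap, which turned to -0.03 under median scaling. Psmd9, the third assembly chaperone, had a difference of -0.08, and -0.69 without young replicates 1 and 2. Psma8 was above background on all 8 arrays at low signal on the probe used, with a difference of 0.48 (SE 0.28). A second Psma8 probe was above background on 1 array and was not tested. Psmc3ip was above background on 4 young and 2 old arrays, and Psmb11 was above background on 1 array and was not tested.

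The core and regulatory particles moved alike between arrays. The median difference was -0.13 over the 14 core genes and -0.16 over the 17 regulatory genes, and it was 0.02 over all genes, so the regulatory median lay 0.03 below the core median. With each gene set to its own mean over the 8 arrays, the core median on young replicates 1 to 4 was -0.13, -0.15, 0.21 and 0.32, and on old replicates 1 to 4 it was -0.33, -0.13, 0.15 and 0.08. The corresponding regulatory medians were -0.12, -0.0044, 0.23 and 0.27 in young and -0.30, -0.0042, 0.03 and -0.03 in old livers. On both particles young replicates 3 and 4 were highest and old replicate 1 was lowest. The regulatory minus core value on an array was 0.01, 0.15, 0.02 and -0.05 in young and 0.03, 0.13, -0.12 and -0.11 in old livers, so the ages overlapped. Without young replicate 2 the core median was -0.20 and the regulatory median -0.19, which turns their order. The core median was -0.03 without young replicate 4 and -0.07 without old replicate 1, and the regulatory median was -0.12 and -0.09 in the same order.

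**Figure D2:**
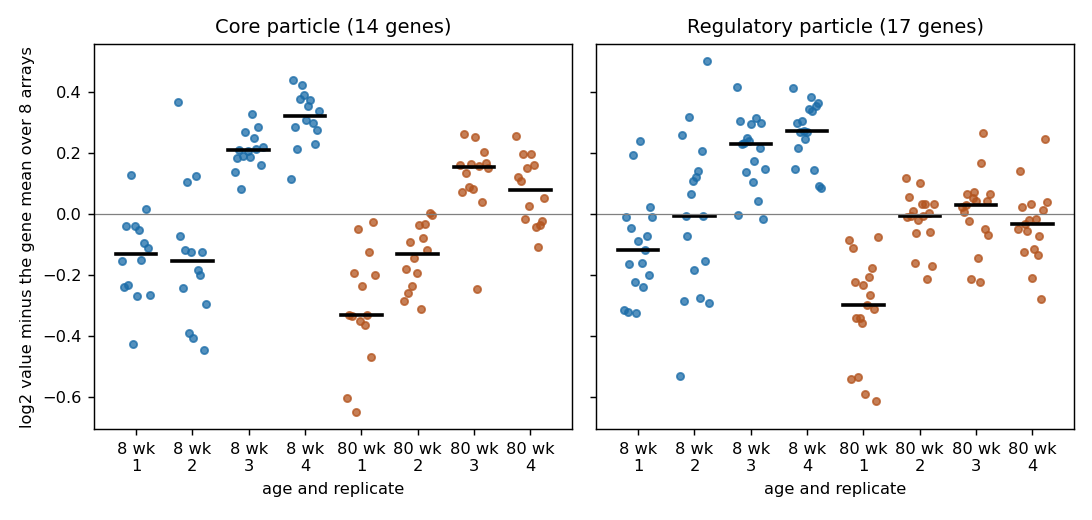
Each point is the log2 value of a subunit gene minus its mean over the 8 arrays (y axis), by age and replicate (x axis), for the 14 core and 17 regulatory genes. Black bars are medians. In both particles the young replicates 3 and 4 sit highest, with core medians of 0.21 and 0.32, and the old replicate 1 sits lowest, at -0.33.

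The highest and lowest values of the subunits gathered on a pair of arrays. Young replicate 4 gave the highest value of 20 of the 31 subunits (64.5%), against 13.1% of all genes. Old replicate 1 gave the lowest value of 20 of the 31 (64.5%), against 14.9% of all genes. Old replicate 1 was also the array with the lowest 75th percentile of intensity (154.7 units). Young replicates 4 and 3, where the subunit medians were highest, had the next lowest (178.2 and 179.6 units). The part of array brightness in the subunit values was not tested. Within the young group the mean of replicates 3 and 4 lay above that of replicates 1 and 2 for all 14 core genes and for 14 of 17 regulatory genes, against 59.6% of all genes. The median distance was 0.34 over the 31 subunits and 0.17 over all genes. For 23 of the 31 subunits this distance within the young group was wider than the difference between the ages. The same count was not taken over all genes, and means of 2 samples vary more than means of 4. It is therefore not read as a trait of the subunits.

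Leaving out young replicates 1 and 2 enlarged the difference between the ages. The core median became -0.31 and the regulatory median -0.35, while the median of all 16906 genes then tested was -0.06. All 31 subunits were below 0, from -0.53 (Psmb2) to -0.10 (Psmd8), against 57.6% of all genes. Every old value lay below both remaining young values for 24 of the 36 members, against 14.2% of all genes. At an unadjusted p under 0.05 there were 7 lower members (Psmb2, Psmc1, Psmc6, Psmd12, Psmd3, Psmd6 and Psmd9), against 4.86% of all genes. Even so, 0 members passed the adjusted threshold, and the lowest limma adjusted p was 0.396. Psmc1, an ATPase gene, went from 0.01 with all arrays to -0.41, since it read 7.10 and 6.88 on young replicates 1 and 2 and 7.83 on each of replicates 3 and 4. Psma7 went to -0.41, Psmc5 to -0.35, Psmd1 to -0.35, Psmd4 to -0.36 and Psmd12 to -0.42, each more than 1.5 times its value from all arrays. Psmc6 hardly moved, from -0.48 to -0.46.

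**Figure D3:**
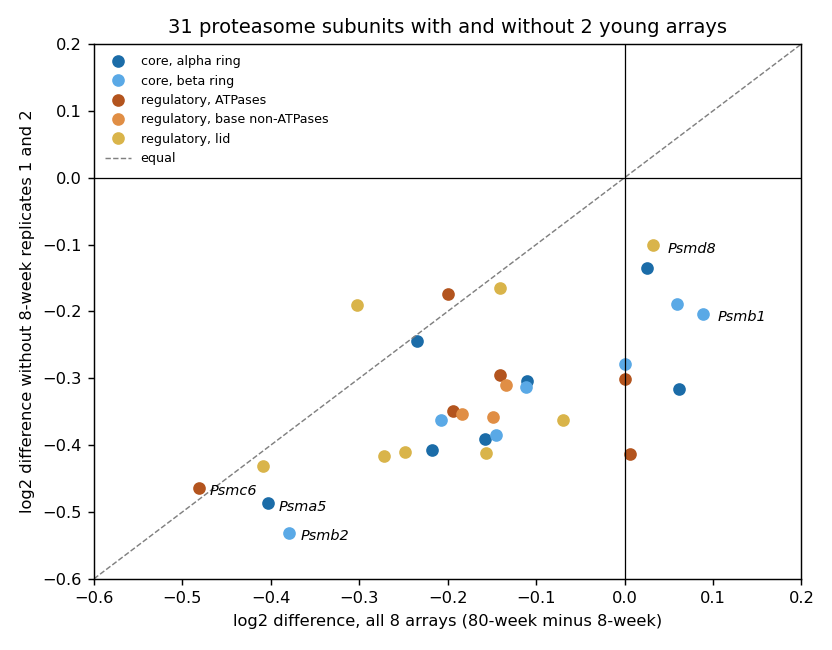
Log2 difference (80-week minus 8-week) of the 31 subunits from all 8 arrays (x axis) and without 8-week replicates 1 and 2 (y axis). The dashed line marks equal values. All points lie below 0 on the y axis, most lie under the dashed line, and Psmc6 lies near it at -0.48 and -0.46.

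The immune counterparts of the proteolytic subunits, which replace them in cells exposed to interferon, included values outside the range of the constitutive subunits. Psmb9, which takes the place of Psmb6, read -0.06, 0.18, 1.25 and 0.93 in young and 1.88, 1.29, 1.96 and 2.54 in old livers. Every old value lay above every young value, though old replicate 2 exceeded young replicate 3 by little. The old level was 2.53-fold the young level, a log2 difference of 1.34 (SE 0.35, limma adjusted p = 0.190). Psmb8, the counterpart of Psmb5, read 1.30, 1.53, 1.78 and 2.04 in young and 2.22, 1.95, 2.42 and 2.77 in old livers. The groups overlapped by old replicate 2, and the difference was 0.68 (SE 0.24, limma adjusted p = 0.300). Psmb10, the counterpart of Psmb7, had a difference of 0.27 (SE 0.21). Of these 3 genes, 0 passed the adjusted threshold. Without young replicates 1 and 2 the Psmb9 difference was 0.82 and the Psmb8 difference 0.43.

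Set within each array, the log2 ratio of Psmb9 to Psmb6, centred on its mean, was -1.20, -0.62, -0.15 and -0.59 in young and 0.66, 0.04, 0.55 and 1.31 in old livers. All old values lay above all young values, a difference of 1.28, or 1.01 without young replicates 1 and 2. The ratio of Psmb8 to Psmb5 was likewise higher on every old array, by 0.89, or 0.80 without those arrays. The ratio of Psmb10 to Psmb7 overlapped between ages, with a difference of 0.27, or 0.40 without those arrays. These ratios were not tested, and a ratio does not tell which member of a pair differs. Summed B and plasma cell markers, of which 2 of 4 were tested and 1 passed the threshold, ran from 0.132 to 0.380 in young and from 0.893 to 3.90 in old livers, in multiples of the array's 75th percentile. The 2 tested markers differed by 0.62 and 5.41, and only 1 of them was above background on all 8 arrays. Among the B cell markers, Cd79a and Ms4a1 were too dim to test. T and NK markers, 3 of 5 tested with 0 passing, ran from 1.77 to 4.13 in young and 3.56 to 4.53 in old livers. Kupffer cell markers, 5 of 5 tested with 0 passing, ran from 49.6 to 155 in young and 61.0 to 240 in old livers. Neutrophil markers, 5 of 5 tested with 0 passing, ran from 79.5 to 151 in young and 27.6 to 124 in old livers, and monocyte markers, 3 of 4 tested with 0 passing, from 54.7 to 116 and from 47.1 to 129. The immune lists thus differed in which age held the higher values. The part of immune cell RNA in the immune subunit values was not tested.

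**Figure D4:**
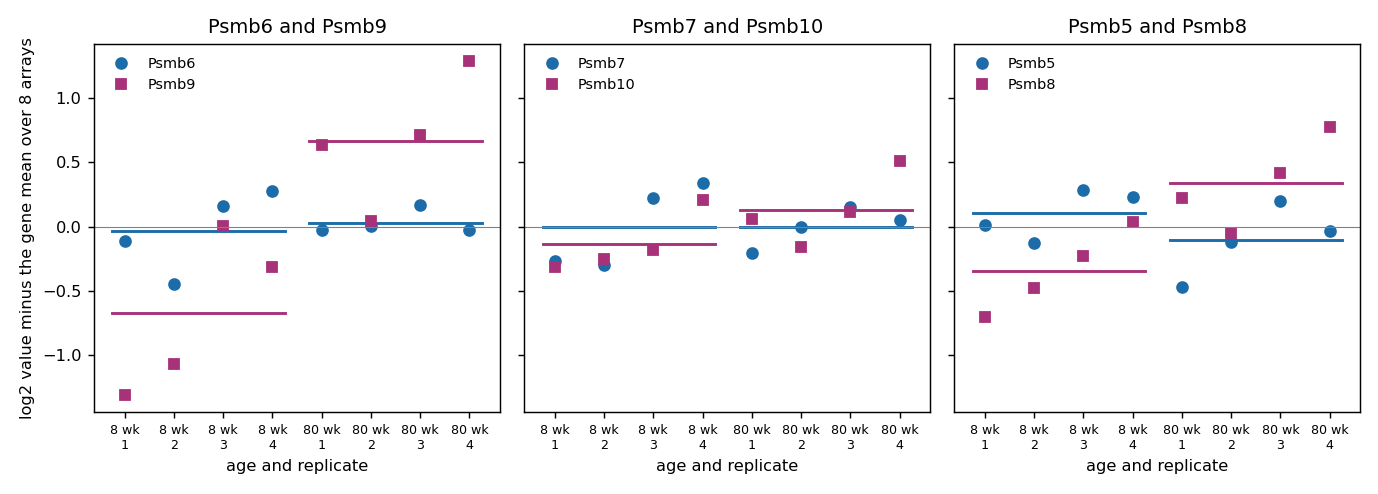
Log2 value minus the gene's mean over 8 arrays (y axis) by age and replicate (x axis) for each constitutive proteolytic subunit (circles) and its immune counterpart (squares). Horizontal bars are group means. Psmb9 and Psmb8 have higher means in 80-week livers, by 1.34 and 0.68, while the means of Psmb5, Psmb6 and Psmb7 differ by at most 0.21 either way.

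Among 40 tested genes that work with the proteasome, 0 passed the adjusted threshold, against 0.359% of all genes. In this list, which includes the 3 immune subunits, the median difference was -0.04, and it was -0.17 without young replicates 1 and 2. The 11 genes that carry or unfold ubiquitin-tagged proteins had a median of -0.38 (-0.47 without those arrays), and 10 of them were below 0, against 48% of all genes. In 4 of the 11 every old value lay below every young value, against 3.76% of all genes. Ubqln1, a shuttle that brings such proteins to the regulatory particle, read 3.71, 3.91, 3.79 and 3.85 in young and 2.98, 3.47, 2.85 and 3.08 in old livers. Its groups did not overlap, and the difference was -0.72 (SE 0.19, limma adjusted p = 0.184), nearly the same without young replicates 1 and 2 (-0.73). Ufd1, a cofactor of the unfolding ATPase Vcp, had a difference of -0.41 and Vcp itself of -0.35, and Rad23b, another shuttle, one of -0.34. These 3 genes also had no overlap, with limma adjusted p of 0.345, 0.388 and 0.387. Sqstm1, an autophagy receptor for ubiquitin-tagged proteins, differed by -0.62 (SE 0.27, limma adjusted p = 0.354), with overlap.

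Genes outside the naming rule whose products sit on or in the regulatory particle gave a mixed picture. Their median was -0.09 over 7 genes, and -0.21 without young replicates 1 and 2. Usp14, a deubiquitinase bound to the base, read 4.73, 4.75, 4.44 and 4.48 in young and 3.98, 4.31, 4.21 and 4.20 in old livers. The groups did not overlap, and the difference was -0.43 (SE 0.17, limma adjusted p = 0.335). It was -0.28 without young replicates 1 and 2, and -0.08 with the mean of its probes in place of the brightest. Adrm1, a ubiquitin receptor, differed by -0.44 (SE 0.21, limma adjusted p = 0.370) without overlap, and by -0.21 without young replicates 1 and 2. Sem1 differed by 0.06 with overlap, and by -0.13 without those replicates. The 5 assembly factors outside the naming rule had a median of 0.06, the 4 activator and inhibitor genes one of 0.33, and the 5 genes of ubiquitin and its activating enzyme one of -0.20. Without young replicates 1 and 2 these medians were -0.14, 0.02 and -0.32.

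The transcription factors that act on proteasome genes differed in how they varied. Nfe2l1 read 3.49, 3.53, 3.47 and 3.46 in young and 3.13, 3.67, 3.41 and 3.74 in old livers, a difference of 0.00 (95% interval -0.42 to 0.42). Nfe2l2 read 2.60, 2.27, 3.89 and 4.50 in young and 3.50, 4.32, 5.04 and 4.46 in old livers. Young replicates 1 and 2 were low, the groups overlapped, and the difference of 1.01 (SE 0.51, limma adjusted p = 0.395) was 0.13 without those replicates. These are transcript levels, and both factors are known to be controlled largely through protein stability.

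Promoter sequence was read for the members because the values of the subunits varied together between arrays. Windows of 250 bases before to 50 after the gene start (RefSeq, build GRCm38.p6) were matched for 30 of the 37 members by symbol, with 32 windows in all. Psma8, Psmb1, Psmb2, Psmb7, Psmc3, Psmd3 and Psmd7 had no entry. The letters TGACNNNGC on either strand, as bound by NFE2L1 and NFE2L2, occurred in 5 of the 32 member windows (15.6%), each of a different gene, and in 12.4% of all 32851 windows. CCGGAAG on either strand, a core of ETS-family sites, occurred in 12 member windows (37.5%), of 11 genes, and in 8.86% of all windows. The 11 genes include Psmc3ip, which is no subunit, and Psmc2 matched in more than 1 window. All windows were not limited to genes bright enough to test. CCAAT occurred in 40.6% of member windows and 37.4% of all windows, and TTCNNGAA, as in heat shock elements, in 1 member window (Psmd4, where it overlaps CCGGAAG) and 8.52% of all windows. A match describes letters in a window and is not a shown binding site.

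The stretches below hold the TGACNNNGC matches of the 5 members and the CCGGAAG match of Psmd11, whose ages did not overlap. All are 60 bases upstream of the gene start, 5′ to 3′ on the gene's strand, with the match in capitals. The matches of Psmc6, Psmd12 and Psmd11 read on the opposite strand, so their capitals are the reverse complement of the letters searched. They lie at chr14:45329574-45329633 (plus strand) for Psmc6, chr11:107479278-107479337 (plus) for Psmd12, chr5:123228130-123228189 (plus) for Psmd9, chr14:54618009-54618068 (minus) for Psmb5, chr11:70525297-70525356 (plus) for Psmb6 and chr11:80428555-80428614 (plus) for Psmd11, on GRCm38.p6.
Psmc6: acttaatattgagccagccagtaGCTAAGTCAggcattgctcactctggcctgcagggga
Psmd12: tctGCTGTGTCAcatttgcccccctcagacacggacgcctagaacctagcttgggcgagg
Psmd9: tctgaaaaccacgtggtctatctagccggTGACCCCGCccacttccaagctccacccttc
Psmb5: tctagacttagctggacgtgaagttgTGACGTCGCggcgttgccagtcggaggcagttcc
Psmb6: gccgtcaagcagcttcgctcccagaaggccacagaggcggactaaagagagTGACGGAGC
Psmd11: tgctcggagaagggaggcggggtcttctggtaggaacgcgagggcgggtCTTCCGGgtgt
The match begins 227 bases upstream of the start in Psmc6, 247 in Psmd12, 31 in Psmd9, 47 in Psmb5, 9 in Psmb6 and 11 in Psmd11. Members with the TGACNNNGC match differed between ages by -0.48 (Psmc6), -0.27 (Psmd12), -0.08 (Psmd9), -0.21 (Psmb5) and 0.06 (Psmb6). Those without it among the 31 subunits included both Psma5 (-0.40) and Psma6 (0.06). Subunits with the CCGGAAG match likewise ran from -0.48 (Psmc6) to 0.06 (Psma6), with Psmd11 at -0.41.

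Where a gene had more than 1 tested probe, the probes mostly gave like differences. Of 70 member probes, 64 were tested, and 45 of those were below 0. In 12 of 19 genes with several tested probes all had the same sign, and the median range between probes of a gene was 0.08. The range exceeded this clearly in Psmc6 (1.13), Psmb2 (0.65), Psmd4 (0.55), Psmc2 (0.48), Psmd7 (0.37) and Psmd14 (0.30). The median SD within groups was 0.24 over the subunits against 0.38 over all genes. Most subunits were bright, and signal level was not matched in this comparison.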

How the data were processed

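Total RNA from 8 liver samples was hybridised to single-colour Agilent arrays. The authors deposited 1 scanner file per array, with intensity per spot after background correction in Feature Extraction 10.7.3.1, per the file headers (version 9.1 in the submitters' processing notes). A series table, deposited by the authors as intensity, matched the scanner signal within 1% for 100% of probes, so it carried no scaling between arrays; it served as an alternative.

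From the scanner signal, log2 values minus each array's 75th percentile were taken. Outlier spots (59 to 97 per array) were left out and spots of a probe averaged. A probe was tested when well above background on at least 4 of 8 arrays, and a gene took its brightest tested probe. Ages were compared by limma's lmFit and eBayes (version 3.58.1, R 4.3.3), with Benjamini-Hochberg adjustment over 17565 genes at 0.05. The number of arrays limits the precision. The code was tested on simulated data.

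The members, gene lists and tests were chosen with earlier results of these data known. Named genes are the 3 proteolytic subunits, the 2 smallest p in each subcomplex, the extreme differences of each particle and the 10 pathway genes with the smallest p. Other genes named singly, among them Psmc1, Nfe2l1 and Psmb10, were chosen after their values were seen or for their role. Alternatives covered background correction, scaling, filter, probe rule, variance prior, weights, replicate block and omitted arrays.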

Additional observations from a re-analysis of the deposited data

Results flagged for a closer look

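Of 58 groups of 4 values examined for a sample far from the others, 2 (3.45%) stood out, where chance gives about 1 in 20. Psmb6 in old replicate 3 read 7.13, while the other 3 old values lay between 6.94 and 6.97. Psmc5 in old replicate 1 read 3.37, while the other 3 old values lay between 3.68 and 3.72.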

How the results depend on the processing

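In every setting run, 0 members and 0 of the other proteasome-pathway genes passed the adjusted threshold, and the lowest adjusted p was 0.193 for members and 0.0881 for pathway genes, both with array weights. The count over all genes, 63, was 21 when probes had to be above background on all 8 arrays, 172 with array weights, 16 without young replicates 1 and 2, and 10 to 75 when 1 array was left out (10 without old replicate 3 or 4, 26 without young replicate 1, 29 without old replicate 2, 40 without old replicate 1). The count of members at an unadjusted p under 0.05, 1, was 4 with normexp and quantile, 3 with quantile, 2 with a trended and robust prior, 7 with array weights, 0 with the authors' table, 7 without young replicates 1 and 2 and 0 to 2 with 1 array left out. The regulatory median was -0.354 without young replicates 1 and 2. Signs of small differences turned as follows. Under median scaling Psmb6 was -0.045, Psmb7 -0.10, Psmd10 -0.031, Psmb1 -0.016 and Psmd8 -0.072. With the authors' table they were -0.040, -0.10, -0.027, -0.010 and -0.067. With array weights Psmb6 was -0.12, Psmb7 -0.18, Psmb1 -0.10 and Psmd8 -0.069, and without young replicates 1 and 2 they were -0.19, -0.28, -0.20 and -0.10. With normexp and quantile Psmb7 was -0.062, Psmb1 -0.023 and Psmd8 -0.032. With quantile Psmb7 was -0.070 and Psmd8 -0.048, and with normexp alone Psmb7 was -0.020. The mean of probes gave Psmc6 0.085. With 1 array left out Psmb6 ran from -0.079 to 0.16, Psmb7 from -0.098 to 0.11, Psmd10 from -0.032 to 0.16, Psmb1 from -0.032 to 0.21 and Psmd8 from -0.059 to 0.087. The cause was not tested. Deviations of same-numbered samples correlated at 0.03, 0.14, 0.11 and 0.10, so 3 of 4 pairs but not all exceeded 0.1, and 5 of 8 samples correlated best with their own number. The numbers were therefore not used to pair the samples, and a pairing is not excluded. With the replicate number as a block 70 genes passed, 17 lower and 53 higher (5 and 58 without it), and 0 members passed.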
